A study of Sus scrofa with 12 samples.

Results

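A set of 10 genes that neurons switch on when they are active were followed here in the striatum of newborn piglets: NPAS4, EGR1, EGR2, EGR3, EGR4, NR4A1, NR4A2, NR4A3, ARC and HOMER1. They were chosen by name in the authors' deposited table of gene-level comparisons, where 10 of 10 names were found among 21223 genes, and their raw counts were read by Ensembl identifier from a table of 25880 genes. RNA sequencing was done on 12 libraries, each labelled as the striatum of 1 piglet. The 6 DHCA piglets were anaesthetised with 4% isoflurane and put on cardiopulmonary bypass through a sternotomy. They were cooled to 18 °C, held for 30 min in deep hypothermic circulatory arrest (DHCA, a standstill of the circulation used in infant heart surgery), rewarmed to 37 °C on bypass and allowed 6 h of recovery. The 6 Sham piglets were kept under 4% isoflurane, with no recovery time in the labels. Surgery, bypass, cooling, arrest and recovery therefore differ together between the groups and cannot be told apart.

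Immediate early genes are transcribed within minutes of synaptic input, without new protein synthesis, when calcium entry activates kinases that act on CREB, SRF and MEF2. Some encode transcription factors that switch on a slower wave of genes, and others encode proteins that act at the synapse. In the rodent striatum, dopamine and glutamate inputs induce them in spiny projection neurons, and several of them also respond to growth factors and stress in cells other than neurons.

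Each library was given its place by its title, and the total counts were 5434652 to 9997400 in DHCA libraries and 1377809 to 12933536 in Sham libraries. Levels are given as CPM (counts scaled to library size) after TMM scaling, on which 1 CPM stood for 1.5 counts in Sham 5, the shallowest library, and 13.7 in Sham 6, the deepest. The library labelled Sham 4 went against its tissue label. Markers of striatal spiny neurons took 0.332% to 0.744% of counts in DHCA libraries and 0.439% to 0.880% in the other 5 Sham libraries, but 0.0433% in Sham 4. Markers of cortical excitatory neurons took 0.00509% to 0.0120% in DHCA and 0.00757% to 0.0136% in the other Sham libraries, but 0.126% in Sham 4. SLC17A7, the vesicular glutamate transporter of cortical neurons, was at 838.2 CPM in Sham 4 and at no more than 7.99 CPM elsewhere, while the dopamine receptor gene DRD1 had 8 counts there. DHCA 3 had the highest share of oligodendrocyte markers, 6.05% against 0.478% to 2.64% in the other DHCA libraries, and the lowest share of pan-neuronal markers, 0.304% against 0.412% to 0.465%. Over 13 lists of cell type markers, 0 shares differed between the groups at an adjusted p under 0.05 (exact 2-sided permutation test, smallest adjusted p = 0.127), and 2 had an unadjusted p under 0.05. In tissue RNA of this kind, fewer cells of a type and less RNA per cell cannot be told apart.

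None of the 10 genes passed the test between DHCA and Sham. In edgeR's quasi-likelihood test with Benjamini-Hochberg adjustment over all 14004 genes tested, 0 of 10 had an adjusted p under 0.05, against 0.186% of all genes (26 of 14004, with 0.136% higher and 0.05% lower in DHCA). At an unadjusted p under 0.05 there were 2 of the 10, NPAS4 higher and ARC lower in DHCA, against 7.9% of all genes. The p of NPAS4 was 0.00273 and that of ARC 0.00554, before adjustment in edgeR. All 10 genes passed the filter on low counts. The levels of the groups overlapped in all 10, while 0.993% of all genes did not overlap. The fitted log2 fold changes (DHCA minus Sham) were positive for 7 genes and negative for 3, with a median of 0.17 against -0.003 for all genes. The DESeq2 Wald test, an alternative that called 181 genes (1.24%), called 1 of the 10, NPAS4, and limma-voom, which called 0.193% of genes, or 1.48% with sample quality weights, called 0 of the 10 either way.

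**Figure D1:**
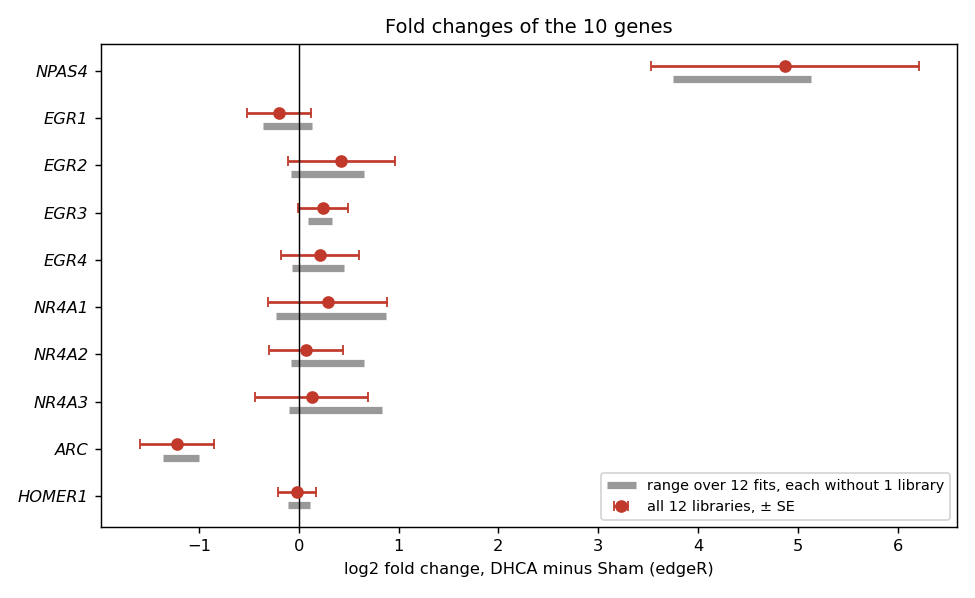
Log2 fold change, DHCA minus Sham, from edgeR for each of the 10 genes (red points, with bars of 1 standard error, 6 libraries a group), and the range over 12 fits that each leave out 1 library (grey bars). NPAS4 lies far to the right at 4.87 with the widest error, ARC lies at -1.22 with its whole grey bar below 0, and the other 8 lie between -0.20 and 0.42.

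NPAS4 encodes a transcription factor that is found mainly in neurons and is induced selectively by calcium entry. The gene (ENSSSCG00000012942) lies on chromosome 2 of Sscrofa11.1 at 5989535 to 5996065, minus strand. DHCA 2 stood at 136.1 CPM and DHCA 3 at 79.0 CPM. DHCA 6, 1, 4 and 5 had 5.77, 1.08, 1.08 and 0.560 CPM. Sham libraries ran from 0.569 CPM in Sham 4 through a median of 1.18 CPM to 3.10 CPM in Sham 1. In counts, DHCA 2 had 1002 reads and DHCA 3 had 514, against 5 to 28 in the other DHCA libraries and 2 to 14 in Sham libraries. Thus 3 DHCA libraries lay above every Sham library, while the other 3 lay within or below the Sham range.

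The group means of NPAS4 were 37.3 ± 57.4 CPM in DHCA and 1.44 ± 0.936 CPM in Sham (SD, n = 6 each), so the SD in DHCA was larger than the mean. The log2 fold change was 4.87 (SE 1.34, edgeR adjusted p = 0.235). It was 3.75 without DHCA 2 (edgeR adjusted p = 0.506) and 4.50 without DHCA 3 (edgeR adjusted p = 0.363). The value depended on the method: the DESeq2 Wald test gave 4.73 (adjusted p = 0.00874), while limma-voom, which averages on the log scale, gave 2.17 (adjusted p = 0.868). With sample quality weights limma-voom gave 1.2 (adjusted p = 0.818). The exact 2-sided permutation test of mean log2 CPM gave a difference of 2.15 with p = 0.175. Of the DHCA libraries, DHCA 2 and DHCA 3, highest in NPAS4, had the highest oligodendrocyte shares (2.64% and 6.05%, against 0.478% to 1.38%). The pan-neuronal share was lowest in DHCA 3 (0.304%), with 0.412% in both DHCA 2 and DHCA 6 and up to 0.465% in the others. Sham 1, Sham 2 and Sham 5 had oligodendrocyte shares of 2.76%, 3.24% and 3.18%, with NPAS4 at 3.10, 0.749 and 1.33 CPM. In Sham 3, Sham 4 and Sham 6 that share was 1.03% to 1.44%. The part of tissue makeup in the NPAS4 value was not tested.

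**Figure D2:**
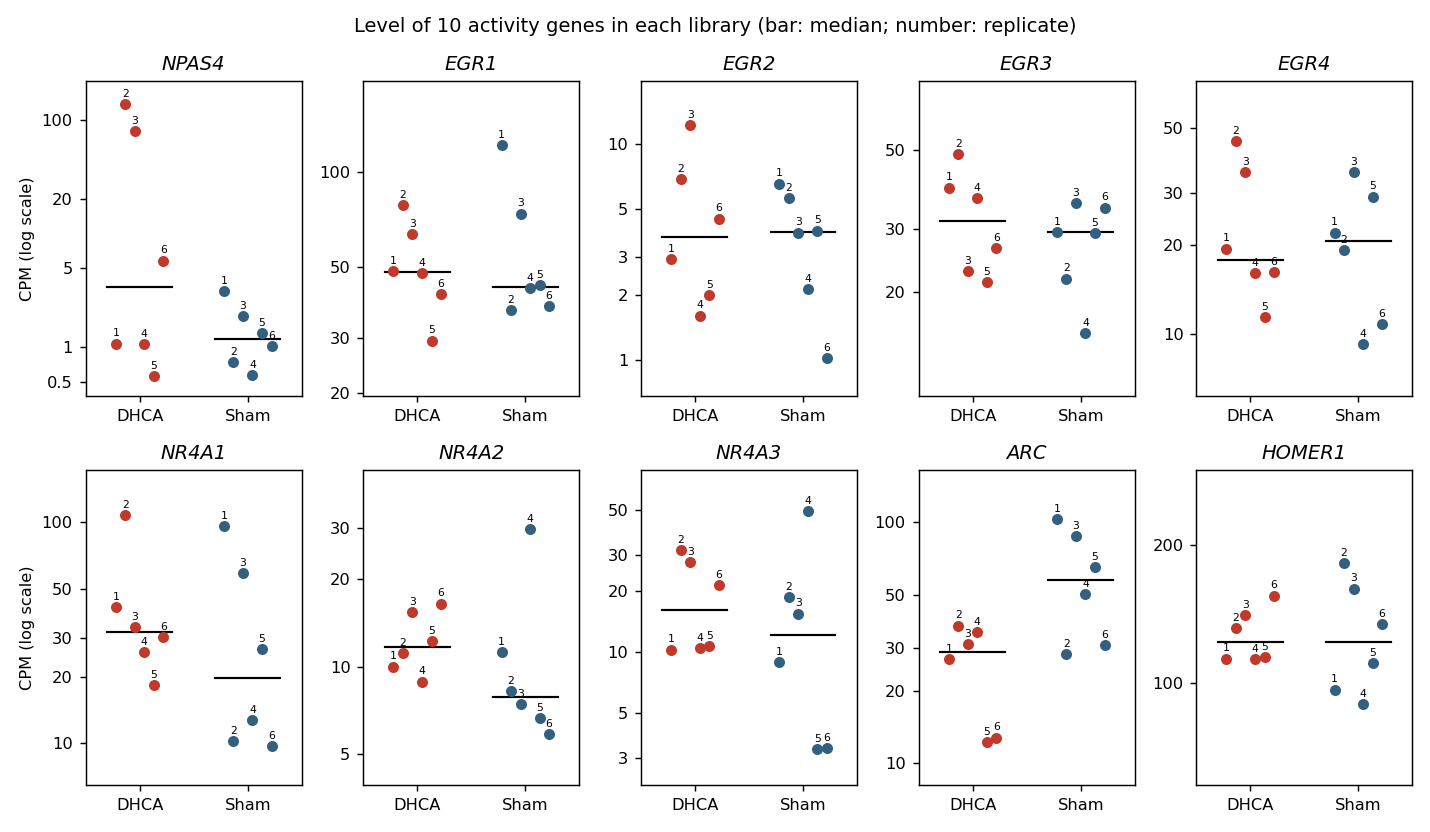
Level of each of the 10 genes in CPM (log scale, a separate axis for each gene) in 6 DHCA libraries (red, left) and 6 Sham libraries (blue, right), with the replicate number at each point and a bar at the group median. NPAS4 shows DHCA 2 and DHCA 3 far above the rest, ARC shows all 6 DHCA libraries below the Sham median, and NR4A2 and NR4A3 are highest in Sham 4.

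The 4 EGR genes encode zinc finger transcription factors that bind a shared GC-rich site. EGR1 (ENSSSCG00000014336, chromosome 2, 140441491 to 140471827, plus strand) is the most widely used marker of neuronal activation in the family. It ran from 29.3 CPM in DHCA 5 through a median of 48.3 to 78.7 CPM in DHCA 2, against 36.7 CPM in Sham 2 through a median of 43.4 to 121.7 CPM in Sham 1. The highest library of all was a Sham library, and the medians lay close together. The log2 fold change was -0.20 (SE 0.32, edgeR adjusted p = 0.883), and 0.13 without Sham 1. Its exons overlap those of 1 other gene, ETF1 on the opposite strand, and since the counting used no strand option, reads of the overlap cannot be told apart.

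EGR2 (ENSSSCG00000010224, chromosome 14, 66284581 to 66291306, minus strand), known also for its role in myelinating Schwann cells, had the lowest mean level per length of the family in both groups. It had 12.3 CPM in DHCA 3 and 6.93 CPM in DHCA 2, with a DHCA median of 3.74 and a lowest value of 1.61 CPM, against 1.02 to 6.59 CPM in Sham with a median of 3.95. The same DHCA libraries that led for NPAS4 were the highest here, and the other 4 lay within the Sham range. EdgeR gave a log2 fold change of 0.42 (SE 0.54, edgeR adjusted p = 0.847), and -0.08 without DHCA 3.

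EGR3 (ENSSSCG00000009630, chromosome 14, 6945936 to 6948381, minus strand), which acts downstream of calcineurin and MAP kinase signals, was the steadiest of the family. It ran from 21.4 to 48.6 CPM in DHCA libraries (median 31.6) and from 15.4 CPM in Sham 4 to 35.5 CPM in Sham 3 (median 29.4). DHCA 1, 2 and 4 lay above every Sham library and no DHCA library lay below the Sham range. EdgeR gave a log2 fold change of 0.24 (SE 0.25, edgeR adjusted p = 0.830), and 0.10 without Sham 4. Its span overlaps a gene without a name, but their exons do not overlap.

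EGR4 (ENSSSCG00000036364, chromosome 3, 69485919 to 69491595, plus strand) had 45.1 CPM in DHCA 2 and 35.3 CPM in DHCA 3, with 11.4 to 19.5 CPM in the other 4 DHCA libraries. Sham libraries ran from 9.24 CPM in Sham 4 to 35.5 CPM in Sham 3, with a median of 20.7. As with EGR2, DHCA 2 and DHCA 3 stood above the other DHCA libraries, but Sham 3 reached the level of DHCA 3. The log2 fold change was 0.21 (SE 0.39, edgeR adjusted p = 0.898), and -0.07 without DHCA 2.

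The 3 NR4A genes encode orphan nuclear receptors that act without a known natural ligand and are controlled mainly by how much is made. NR4A1 (ENSSSCG00000031321, chromosome 5, 17399324 to 17411053, plus strand), also called Nur77 and also induced in immune and vascular cells, had 108.0 CPM in DHCA 2 and 18.4 to 41.2 CPM in the other DHCA libraries. In Sham it had 95.8 CPM in Sham 1 and 59.1 CPM in Sham 3, with 9.74 to 26.6 CPM in the other 4. Both groups held a library near 100 CPM, and 5 of 6 DHCA libraries were above the Sham median of 19.7 CPM. For NR4A1 the log2 fold change was 0.29 (SE 0.60, edgeR adjusted p = 0.910). It was 0.88 without Sham 1 (edgeR adjusted p = 0.825) and -0.23 without DHCA 2.

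NR4A2 (ENSSSCG00000015871, chromosome 15, 63485314 to 63505728, minus strand), also called Nurr1, is needed for midbrain dopamine neurons and is also expressed in cortex. It ran from 8.87 CPM in DHCA 4 to 16.5 CPM in DHCA 6, against 5.86 CPM in Sham 6 to 29.8 CPM in Sham 4. Sham 4 alone was above the DHCA libraries, and 6 of 6 DHCA libraries were above the Sham median of 7.83 CPM. With all libraries the log2 fold change was 0.07 (SE 0.37, edgeR adjusted p = 0.971), and without Sham 4 it was 0.65 (edgeR adjusted p = 0.541).

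NR4A3 (ENSSSCG00000005385, chromosome 1, 241569830 to 241613629, plus strand), also called NOR1, had 31.8, 27.8 and 21.4 CPM in DHCA 2, 3 and 6 and 10.3 to 10.8 CPM in the other DHCA libraries. It had 49.6 CPM in Sham 4 and 3.33 to 18.6 CPM in the other Sham libraries, so Sham 4 was again the highest library of all. For NR4A3 the log2 fold change was 0.13 (SE 0.56, edgeR adjusted p = 0.965), and 0.83 without Sham 4 (edgeR adjusted p = 0.757). Sham 4 is the library with cortical and few striatal markers, and the part of tissue makeup in the NR4A2 and NR4A3 values was not tested.

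ARC encodes a synaptic protein that removes AMPA receptors from the membrane and whose messenger RNA travels to active dendrites. The gene (ENSSSCG00000038965) lies on chromosome 4 at 1517981 to 1521403, plus strand. ARC was at 37.2, 35.1, 31.2, 27.0, 12.8 and 12.2 CPM in DHCA 2, 4, 3, 1, 6 and 5. In Sham it was at 103.1, 87.2, 65.2, 50.3, 30.8 and 28.4 CPM in Sham 1, 3, 5, 4, 6 and 2. All 6 DHCA libraries lay below the Sham median of 57.8 CPM and 3 of them lay below every Sham library, but the ranges overlapped between 28.4 and 37.2 CPM.

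The group means of ARC were 25.9 ± 11 CPM in DHCA and 60.9 ± 30.2 CPM in Sham (SD, n = 6 each). The log2 fold change was -1.22 (SE 0.37), with an unadjusted p of 0.00554 and an edgeR adjusted p of 0.327. Over the 12 fits that each leave out 1 library it ran from -1.37 to -1.0, with edgeR adjusted p between 0.157 and 0.543. Over all alternative fits, by edgeR, DESeq2 or limma-voom, the adjusted p of ARC ran from 0.0812 to 0.934. The exact 2-sided permutation test of mean log2 CPM for this gene alone gave p = 0.0260, where the smallest p that this design allows is 0.00216. Sham 1 and Sham 5, at 103.1 and 65.2 CPM, were also the shallowest libraries and had the lowest shares of mitochondrial counts, 4.01% and 7.30%. Without both of them the log2 fold change of ARC was -0.92. Sham 2 and Sham 6, the deepest libraries, had 28.4 and 30.8 CPM, within the DHCA range, while Sham 3 had 87.2 CPM.

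HOMER1 encodes a scaffold that links metabotropic glutamate receptors to calcium stores, and a short form induced by activity uncouples them. The gene (ENSSSCG00000014113) lies on chromosome 2 at 88122788 to 88255282, minus strand, and the counts per gene cannot separate the short form from the long forms. It ran from 112.6 to 155.0 CPM in DHCA libraries (median 122.7) and from 89.7 to 182.4 CPM in Sham libraries (median 122.5). Every DHCA library lay inside the Sham range. For HOMER1 the log2 fold change was -0.02 (SE 0.19, edgeR adjusted p = 0.990).

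CPM divided by exonic length in kilobases (RPKM) allows levels to be set in order within a group. In DHCA the means were 26.8 ± 8.80 RPKM for EGR3, 20.1 ± 2.79 for HOMER1, 16.6 ± 5.59 for EGR1, 8.90 ± 13.7 for NPAS4, 8.78 ± 3.72 for ARC and 8.27 ± 6.32 for NR4A1 (SD, n = 6). EGR4, NR4A3, NR4A2 and EGR2 followed at 4.54, 2.42, 2.05 and 1.73 RPKM. In Sham the means were 22.7 ± 6.35 RPKM for EGR3, 20.6 ± 10.2 for ARC, 20.3 ± 5.80 for HOMER1, 19.1 ± 10.8 for EGR1 and 6.88 ± 6.72 for NR4A1 (SD, n = 6). EGR4, NR4A3, NR4A2, EGR2 and NPAS4 followed at 3.99, 2.14, 1.92, 1.33 and 0.345 RPKM. Neighbours in the Sham order overlapped in their ranges in every case. Within libraries, EGR1 was above NR4A1 in 6 of 6 DHCA and 6 of 6 Sham libraries, and EGR2 was above NPAS4 in 4 of 6 DHCA and 6 of 6 Sham libraries. The other 7 neighbouring pairs changed places in at least 1 Sham library. The median of NPAS4 in DHCA was 0.818 RPKM, the lowest of the 10 genes, although its mean was the fourth highest. The first place of EGR3 rests on an annotated exonic length of 1217 bases, the shortest of the 10, against 2914 to 7755 bases for the others.

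The genes varied widely between libraries of the same group. The SD of log2 CPM within groups was above the median of all tested genes (0.456) in 9 of the 10 genes, whose own median was 0.747. NPAS4 had the widest spread, 2.33, and 99.9% of tested genes had a smaller one. NR4A3, NR4A1 and EGR2 followed with 1.17, 1.15 and 0.970. HOMER1 was the exception at 0.320, a spread larger than that of 24.7% of tested genes. The highest library was 243.3 times the lowest for NPAS4 in DHCA and 5.46 times in Sham, while for HOMER1 the ratios were 1.38 and 2.03.

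**Figure D3:**
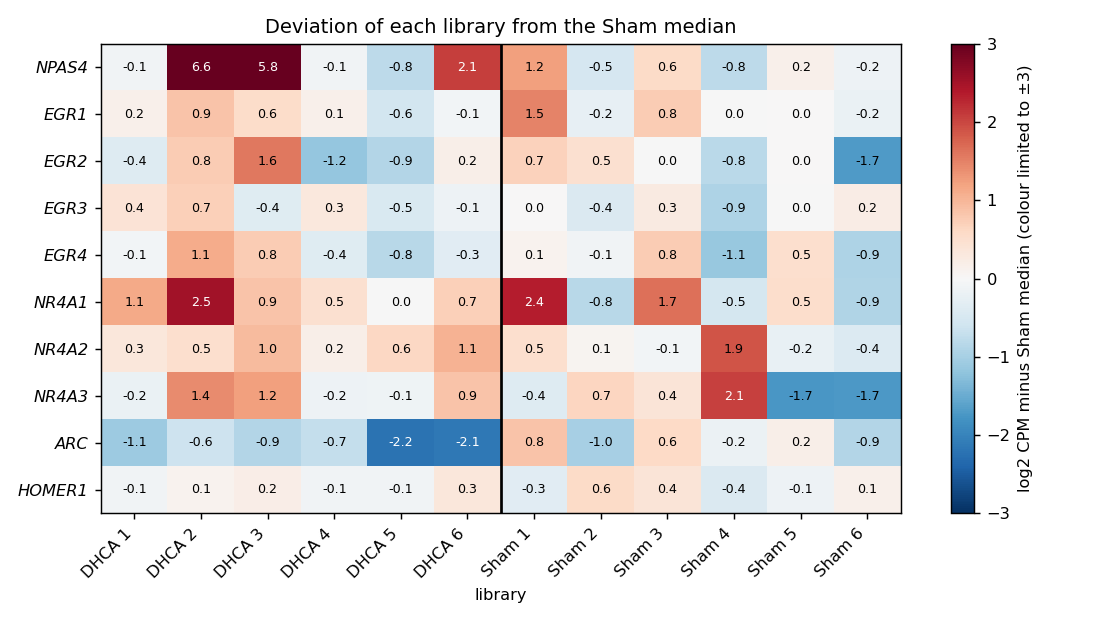
Log2 CPM of each of the 10 genes (rows) in each library (columns, DHCA 1 to 6 left of Sham 1 to 6) minus the Sham median of that gene, with the value printed in each cell and colour limited to 3 in either direction. DHCA 2 and DHCA 3 are red in most rows, Sham 1 is red for EGR1 and NR4A1, Sham 4 is red for NR4A2 and NR4A3, and ARC is blue in all 6 DHCA columns.

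Seen by library, DHCA 2 had 4 genes more than 1 log2 unit above the Sham median (NPAS4, NR4A1, NR4A3 and EGR4) and 0 below it. DHCA 3 had 3 such genes above (NPAS4, EGR2 and NR4A3) and Sham 1 also had 3 (NPAS4, EGR1 and NR4A1). DHCA 6 had 2 above (NPAS4 and NR4A2), DHCA 1 had 1 (NR4A1), Sham 4 had 2 (NR4A2 and NR4A3) and Sham 3 had 1 (NR4A1), while ARC was below by that margin in DHCA 1 and DHCA 6. DHCA 4 and DHCA 5 had 0 genes above by that margin and 1 gene below each, EGR2 in DHCA 4 and ARC in DHCA 5. Sham libraries also had genes below by that margin. These were ARC in Sham 2, EGR4 in Sham 4, NR4A3 in Sham 5, and EGR2 and NR4A3 in Sham 6. In all, 4 of 6 DHCA libraries and 3 of 6 Sham libraries had at least 1 of the genes above by that margin.

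Some of the genes varied together from library to library once the group means were removed. Of the 36 pairs without NPAS4, 26 had a positive Pearson r over the 12 libraries. Of these 36, 5 positive pairs and 1 negative pair had an adjusted p under 0.05 (2-sided permutation within groups, 100000 resamples, Benjamini-Hochberg over all 45 pairs). For NPAS4 no r is given, since DHCA 2 and DHCA 3 form a cluster of their own. The closest pair was EGR1 and NR4A1, with r = 0.918 (permutation p = 0.00016, adjusted p = 0.0072) and a Spearman rho of 0.909 (adjusted permutation p = 0.00157). Without DHCA 2 and Sham 1, the libraries farthest from the median of EGR1, r was 0.815. How often pairs drawn from all tested genes vary together this closely was not tested, and the libraries share depth and tissue makeup. Genes outside the set were picked as the highest of all tested genes with a symbol, which favours them over fellow members. The closest gene outside the set had r = 0.925 with EGR1 (RSPH14), above the value for NR4A1. For NR4A1 it had r = 0.906 (FAM160A1), below the value for EGR1.

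ARC varied with EGR1 and NR4A1 within the groups. For EGR1 and ARC r was 0.851 (permutation p = 0.00064, adjusted p = 0.0144), rho was 0.909 (adjusted permutation p = 0.00157), and r was 0.839 without DHCA 2 and Sham 1. For NR4A1 and ARC r was 0.806 (permutation p = 0.00339, adjusted p = 0.0256), rho was 0.818 (adjusted permutation p = 0.0377), and r was 0.737 without the same libraries. Libraries high in EGR1 for their group were mostly also high in NR4A1 and ARC. The closest genes outside the set, MAST3, NCK2 and ATG4B, followed ARC more closely than EGR1 or NR4A1 did (r = 0.935, 0.925 and 0.907). They were picked as the highest among all tested genes with a symbol, so this comparison favours them by its design. Whether the activity genes vary together more than other genes do was not tested. Without Sham 1, Sham 4 and Sham 5 together, r was 0.901 for EGR1 and NR4A1, 0.897 for EGR1 and ARC, and 0.775 for NR4A1 and ARC, over 9 libraries. The adjusted permutation p was then 0.0355, 0.0355 and 0.0782 for r, and 0.0639, 0.0634 and 0.110 for rho, so the call of NR4A1 and ARC was lost and no rho of these pairs passed. Of the 6 pairs called without NPAS4, 2 were also among the 6 called without those libraries, EGR1 with NR4A1 and EGR1 with ARC.

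EGR2 and EGR4 had r = 0.755 (permutation p = 0.00921, adjusted p = 0.0425), rho of 0.797 (adjusted permutation p = 0.0400), and r of 0.680 without DHCA 3 and Sham 6. NR4A2 and NR4A3 had r = 0.770 (permutation p = 0.00945, adjusted p = 0.0425) but rho of 0.685 (adjusted permutation p = 0.102), and r dropped to 0.445 without Sham 4 and Sham 6, so this pair rests on those libraries. The negative pair was EGR3 and NR4A2, with r = -0.725 (permutation p = 0.00944, adjusted p = 0.0425), rho of -0.615 (adjusted permutation p = 0.122), and r of -0.583 without DHCA 2 and Sham 4.

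**Figure D4:**
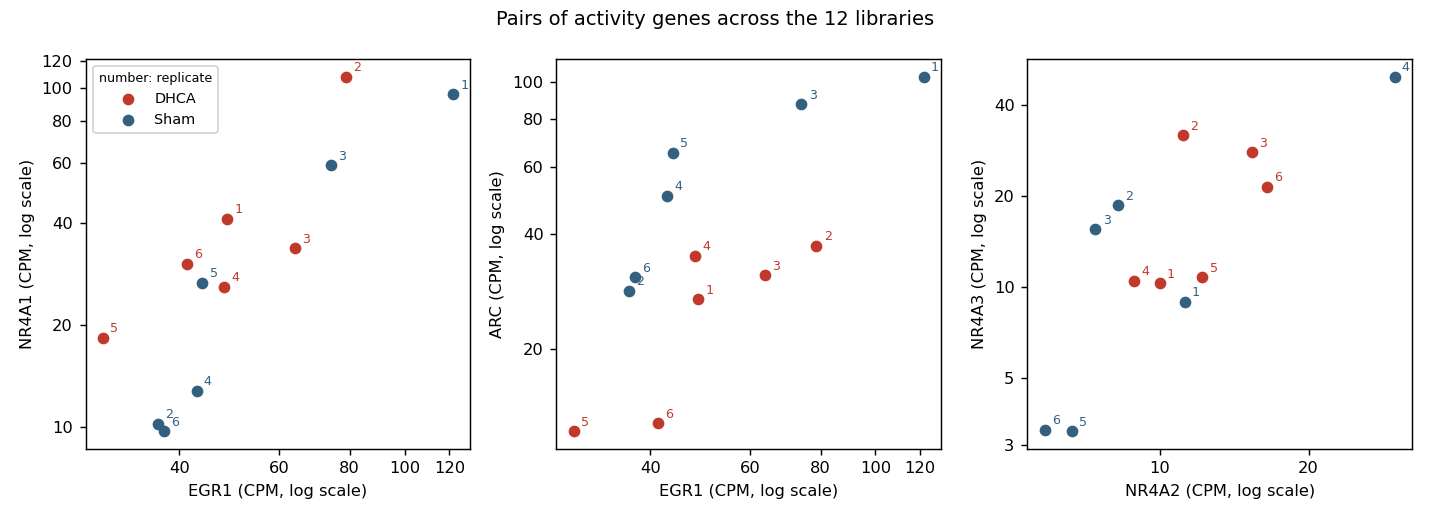
Levels in CPM (log scales) of EGR1 against NR4A1, EGR1 against ARC, and NR4A2 against NR4A3 in 6 DHCA libraries (red) and 6 Sham libraries (blue), with the replicate number at each point. In the first panels high EGR1 goes with high NR4A1 and ARC in both groups, with ARC at 37.2 CPM in DHCA 2 and 87.2 CPM in Sham 3 at EGR1 of 78.7 and 74.0 CPM, and in the last panel Sham 4 lies alone at the upper right.

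The genes outside the 10 whose log2 CPM followed each of them most closely were found by Pearson r over the 12 libraries with group means removed, a description only, since the libraries share depth and tissue makeup. For NPAS4 the closest 3 were MYLK, CDS1 and NFIL3, again with no r given, since any such value rests on DHCA 2 and DHCA 3. EGR1 was followed by RSPH14 (r = 0.925), NR4A1 by FAM160A1 (r = 0.906) and ARC by MAST3 (r = 0.935), a kinase gene. EGR2 was followed by CREB5 (r = 0.889), EGR4 by FADS1 (r = 0.881), EGR3 by ENTREP2 (r = 0.957) and HOMER1 by PDP1 (r = 0.965). NR4A2 and NR4A3 shared TRIM2 among their closest 3 (r = 0.928 and 0.879), a gene that was also highest in Sham 4.

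The wider programme around the 10 genes was described with 4 lists of the same pathway, chosen with earlier results of these data known. Counts over these lists are therefore a description and not a test. Of 26 tested rapid response genes other than the 10, 0 passed the edgeR test over all genes. At an unadjusted p under 0.05, 12 were higher and 0 lower in DHCA, where 3.43% of all genes were higher and 4.47% lower, and their median log2 fold change was 0.64. TRIB1, a pseudokinase gene, was at 24.5 to 45.2 CPM in DHCA and 12 to 20.1 CPM in Sham. Every DHCA library lay above every Sham library, and the log2 fold change was 0.95 (SE 0.19, edgeR adjusted p = 0.0689). GADD45B, a stress and demethylation gene, had a log2 fold change of 1.52 (SE 0.42, edgeR adjusted p = 0.235). FOSL2, a partner of JUN proteins, had 0.62 (SE 0.16, edgeR adjusted p = 0.202). ZFP36, which speeds the decay of cytokine messages, had 1.41 (SE 0.44, edgeR adjusted p = 0.334), and ATF3, a stress-induced factor, had 1.89 (SE 0.62, edgeR adjusted p = 0.375). The groups overlapped in GADD45B, FOSL2, ZFP36 and ATF3. ATF3 was low, at 1.24 to 19.7 CPM in DHCA and 1.08 to 4.65 CPM in Sham.

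Of 19 tested slower activity-induced genes, 0 passed over all genes, with 4 higher and 1 lower in DHCA at an unadjusted p under 0.05 and a median log2 fold change of 0.24. CREM, a CREB relative that includes a feedback repressor, was at 13.3 to 19.5 CPM in DHCA and 4.65 to 11.9 CPM in Sham, with no overlap (log2 fold change 0.79, SE 0.20, edgeR adjusted p = 0.186). RGS2, which shortens G protein signals, was at 55.4 to 86.4 CPM in DHCA and 16.1 to 51.5 CPM in Sham, also with no overlap (log2 fold change 0.999, SE 0.27, edgeR adjusted p = 0.206). CDKN1A, the cell cycle inhibitor p21, had a log2 fold change of 1.38 (SE 0.36, edgeR adjusted p = 0.188), with overlapping groups. NRN1, which encodes a small protein that promotes neurite growth, was at 1.22 to 2.82 CPM in DHCA, against 2.83 to 4.66 CPM in Sham apart from 101.6 CPM in Sham 4. Its log2 fold change was -3.48 (SE 0.96, edgeR adjusted p = 0.235) with all libraries and -0.98 without Sham 4 (edgeR adjusted p = 0.327).

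Genes upstream of the response and partners of its proteins had medians near that of all genes. Of 25 tested inducing kinases and transcription factors, 0 passed over all genes and 1 was higher at an unadjusted p under 0.05, the calcium-dependent kinase gene CAMK4 (log2 fold change 0.70, SE 0.28, edgeR adjusted p = 0.534), with a median of -0.01. PRKACB, a catalytic subunit of protein kinase A, had 0.64 (edgeR adjusted p = 0.753), and CRTC1, a CREB coactivator, had -0.51 (edgeR adjusted p = 0.701). Of 18 tested partners and regulators, 0 passed and 1 was lower at an unadjusted p under 0.05, CACNG2, an AMPA receptor auxiliary subunit (log2 fold change -0.56, SE 0.24, edgeR adjusted p = 0.563), with a median of -0.10. NAB2, a corepressor of EGR proteins, had -0.59 (edgeR adjusted p = 0.701).

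**Figure D5:**
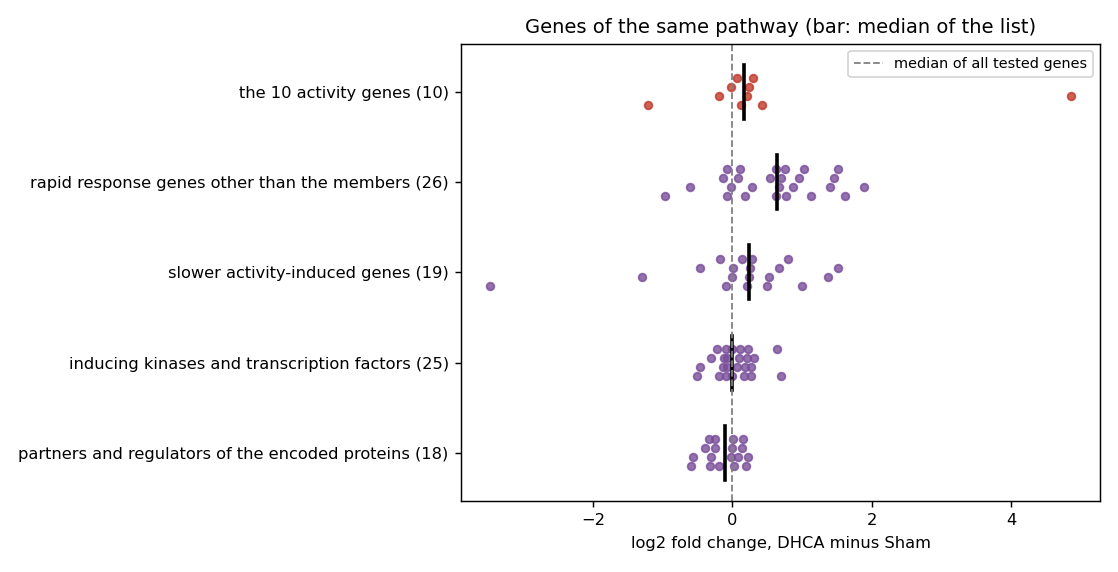
Log2 fold change, DHCA minus Sham, from edgeR for each tested gene of the 10 activity genes and of the 4 pathway lists, with a bar at each list's median and a dashed line at the median of all tested genes. Most rapid response genes lie to the right of the line (list median 0.64), while the inducing factors and the partners centre near it (medians -0.01 and -0.10).

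Of the 10 genes, 0 had an adjusted p under 0.05 in the authors' deposited table, where 220 of 17108 genes (1.29%) had one. NPAS4 had a log2 fold change of 3.10 in the authors' deposited table (SE 1.04, adjusted p = 0.130) and ARC had -1.09 (SE 0.44, adjusted p = 0.280). The authors' deposited table gave the other 8 genes log2 fold changes between -0.07 for EGR1 and 0.69 for NR4A1.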

How the data were processed

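RNA labelled as striatum from 12 piglets was isolated on RNeasy columns and sequenced from TruSeq libraries, per the labels' protocols. Raw counts per gene were deposited. They come from featureCounts 1.5.1, run by the authors on exons of Sscrofa11.1 with no strand option, per the file headers. No aligner is named in the sources used here. Of 18 library columns, 6 match no sample and were not used. Per the file headers, the authors' deposited comparison table lists the mean normalized signal of a gene, its log2 fold change and standard error, the test statistic as a score, and p-values before and after adjustment. Statistic and fold change carry opposite signs there, and DHCA minus Sham was taken as the direction of the fold change (r = 0.967 with the fold changes computed here, across 14004 genes, which are not independent). Which libraries entered it is not stated.

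Genes were filtered by filterByExpr, scaled by TMM and tested with edgeR 4.0.16 (glmQLFit, robust, glmQLFTest; group only) in R 4.3.3, with Benjamini-Hochberg adjustment over 14004 genes and a threshold of 0.05. The SE given with an edgeR log2 fold change is its absolute value divided by the square root of the F statistic. It is therefore a restatement of the test and not a separate estimate. Log2 CPM used a prior count of 2. Alternatives were RLE and upper-quartile scaling, DESeq2 1.42.0, limma 3.58.1 voom with and without quality weights, other filters, a block by title number, a stricter threshold, and leaving out libraries. Each piglet is 1 library, so p-values measure the spread between libraries. That spread joins differences between animals with those of tissue makeup, as in Sham 4, and depth, as in Sham 1 and Sham 5. Chi-square per degree of freedom between libraries of 1 group was 8.50 to 125.8, so no pair agreed within sampling noise. The procedure was tested on simulated counts. There edgeR recovered 40% of 2-fold and 95% of 4-fold changes and called 4 unchanged genes, so a 2-fold change can go uncalled. DESeq2 recovered 55% and 98% and called 41 unchanged genes.

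The 10 genes and all gene lists were chosen with earlier results of these data known. Named are the 10 genes, for each pathway list the 3 genes with the smallest p (4 for rapid response genes) and the largest fold change, and genes among the 3 most like each of the 10. A gene that this rule takes is not reported here. The 4 pathway lists name 29 rapid response, 21 slower, 27 inducing and 19 partner symbols, some of them older synonyms.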

Additional observations from a re-analysis of the deposited data

Results flagged for a closer look

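In 13 of the 134 sets of 6 libraries examined, the highest or lowest library stood apart from the other 5 by Dixon's test at 95% on the log2 scale, which chance gives in about 5% of sets. None of the 10 activity genes was among them on that scale. On the CPM scale, tried after seeing the data, 3 of the 20 sets of these genes passed, NR4A1 in DHCA 2 (108.0 CPM) and, in Sham 4, NR4A2 (29.8 CPM) and NR4A3 (49.6 CPM). Sham 4 stood apart from the other Sham libraries in NRN1 (101.6 CPM), TRIM2 (386.5 CPM), striatal spiny neuron markers (0.0433% of counts), cortical excitatory neuron markers (0.126%) and pan-neuronal markers (0.755%). Sham 1 stood apart in TRIB1 (12 CPM, low), ZFP36 (49.2 CPM, high), CREM (4.65 CPM, low) and TOR1B (12.8 CPM, high), the last a gene among the 3 most like EGR1. DHCA 3 stood apart from the other DHCA libraries at the low end in markers of choroid plexus and ependyma (0.000825% of counts), of all neurons (0.304%) and of microglia (0.0150%). Sham 2 was low in pericyte and fibroblast markers (0.0321%).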

How the results depend on the processing

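Of the 10 activity genes, edgeR called 0 in every fit, with any scaling or filter, with the replicate block and without any 1 library, and the DESeq2 Wald test called 1 (NPAS4). The number of genes called overall moved more: 26 with all libraries, 181 with DESeq2, 207 with limma-voom and quality weights, 8 with the replicate block, 6 at a threshold of 0.01, 9 to 51 when 1 library was left out (9 without DHCA 2, 51 without Sham 2), 12 without Sham 1 and Sham 5, and 1 without Sham 1, 4 and 5. Of the genes in the 4 pathway lists, 0 were called with all libraries, 6 with DESeq2 and 11 with quality weights, 0 to 2 when 1 library was left out (2 without Sham 1) and 1 without Sham 1 and Sham 5. Of the 13 marker lists, 0 to 1 differed when 1 library was left out.

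The log2 fold changes of several genes turned sign, and not only those near 0. With all libraries EGR2 was at 0.42, NR4A1 at 0.29 and EGR4 at 0.21. When 1 library was left out the log2 fold change ran from -0.36 to 0.13 for EGR1, -0.076 to 0.65 for EGR2, -0.071 to 0.45 for EGR4, -0.23 to 0.88 for NR4A1, -0.076 to 0.65 for NR4A2, -0.10 to 0.83 for NR4A3 and -0.11 to 0.11 for HOMER1. Without Sham 1 and Sham 5 it was 0.11 for EGR1, -0.045 for NR4A2 and -0.21 for NR4A3, and without Sham 1, 4 and 5 it was 0.068 for EGR1. HOMER1 was at 0.012 with limma-voom, and at 0.023 with the replicate block and on mean log2 CPM. The cause was not tested. For the 15 named pathway genes, 335 of 345 alternative values kept direction and side of the threshold, 10 newly passed it and 0 turned sign. Of the 45 pairs of activity genes, 10 passed 0.05 after adjustment, 10 with a prior count of 0.5 and 8 without Sham 1, 4 and 5, of which 4 were among the first 10. Same-numbered libraries of the groups deviated together with correlations from -0.388 to 0.338, and 1 of 6 matched its own number best. With so few libraries, this cannot settle whether the title numbers pair the piglets. RLE and upper-quartile scaling shifted the median fold change by -0.010 and -0.043. In Sham 5, 1 CPM was 1.5 counts, so low levels of NPAS4 there rest on 2 counts. The Sham 5 levels of NR4A3, EGR2 and NR4A2 rest on 5, 6 and 10 counts.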
